A study of Mus musculus with 30 samples.

Results

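The Ets and Irf transcription factors of hematopoiesis described here are Spi1 (PU.1), Spib (Spi-B), Ets1, Erg, Fli1, Irf4 and Irf8. They were chosen by name, through the array's gene name or a synonym of it, and these 7 genes had 13 of the 41174 probes on the array. Peaks were taken as members when any base lay within 50 kb of the gene's position, which gave 341 of the 323966 peaks in 24 lists. All 13 probes passed the filter on dim probes. The gene position is the mm8 span of the gene's array probes, which need not reach the start of the gene. The window around any member, Ets1, Erg and Fli1 among them, therefore need not hold its promoter. No mm8 gene annotation was used, so peaks are given by distance from the probes and not as exonic or intronic.

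The study profiled RNA on arrays and chromatin by immunoprecipitation and sequencing (ChIP-seq) in C57BL/6 mouse cells stopped at early steps of B cell development. There were 2 RNA samples in each of 3 groups, pre-pro-B cells lacking E2A (E2A-/-), pre-pro-B cells lacking EBF (EBF-/-) and pro-B cells lacking RAG1 (RAG1-/-). The E2A-/- and EBF-/- cells grew on S17 stroma with IL7, SCF and FLT3 ligand, while the RAG1-/- cells were B220+ cells of femoral bone marrow grown for 10 d in IL-7 and SCF. Each mark or factor had 1 ChIP-seq library per condition, made in EBF-/- cells, RAG1-/- cells, or E2A-/- and A12 cells that received E47-ER or bHLH-ER by retrovirus. A12 is an E2A-/- T cell line, and E47-ER and bHLH-ER join an E2A protein, in bHLH-ER without its activation domains, to a hormone-binding part that tamoxifen activates. The infected cells carried an hCD25 tag, were cultured for 21 h and then received 1 µM tamoxifen for 1 or 6 h. A mock immunoprecipitation came from wild-type lymphoid cells. In every comparison with RAG1-/- cells, genotype and culture cannot be told apart. Nothing in the labels says that the 2 samples of a group came from separate animals or cultures, so the p-values measure only the spread between these samples, which may be technical.

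Ets factors bind DNA through a shared Ets domain that reads a GGAA core, and Irf factors read repeated GAAA elements. PU.1 drives myeloid genes when abundant and permits B cell development when scarce, and Spi-B is its closest relative in B cells and plasmacytoid dendritic cells. Irf4 and Irf8 bind weakly alone and are recruited by PU.1 or Spi-B to joint Ets and Irf elements, through which they act together on pre-B cell differentiation, while Ets1, Erg and Fli1 belong to the lymphoid, stem cell and megakaryocyte programs.

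Promoters are shown for the members that rose in RAG1-/- cells and have one in the RefSeq table, because peaks of E2A, EBF1 and chromatin marks were counted near these genes. RefSeq promoters of build GRCm38.p6, running from 250 bases before to 50 after a gene's start, matched 4 of the 7 symbols with 7 promoters. The outermost promoter of each is printed 5′ to 3′ on the strand of the gene, and capitals mark matches on either strand to the E box forms CAGCTG and CAGGTG and to the EBF core CCCNNGGG. They lie at chr7:44532022-44532321 on the minus strand (Spib), chr16:95586544-95586843 on the minus strand (Erg), chr13:30748983-30749282 on the plus strand (Irf4) and chr8:120736108-120736407 on the plus strand (Irf8).
Spib: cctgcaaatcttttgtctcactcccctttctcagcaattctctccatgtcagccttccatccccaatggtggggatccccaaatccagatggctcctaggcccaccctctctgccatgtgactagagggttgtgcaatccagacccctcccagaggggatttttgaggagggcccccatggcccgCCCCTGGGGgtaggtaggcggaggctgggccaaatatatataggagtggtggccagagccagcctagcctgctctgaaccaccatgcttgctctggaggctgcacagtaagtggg
Erg: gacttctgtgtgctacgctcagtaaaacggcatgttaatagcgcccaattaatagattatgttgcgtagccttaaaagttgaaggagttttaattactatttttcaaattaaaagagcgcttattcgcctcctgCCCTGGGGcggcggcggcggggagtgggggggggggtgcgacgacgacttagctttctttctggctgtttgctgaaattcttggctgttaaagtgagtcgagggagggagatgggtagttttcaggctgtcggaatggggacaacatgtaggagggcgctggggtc
Irf4: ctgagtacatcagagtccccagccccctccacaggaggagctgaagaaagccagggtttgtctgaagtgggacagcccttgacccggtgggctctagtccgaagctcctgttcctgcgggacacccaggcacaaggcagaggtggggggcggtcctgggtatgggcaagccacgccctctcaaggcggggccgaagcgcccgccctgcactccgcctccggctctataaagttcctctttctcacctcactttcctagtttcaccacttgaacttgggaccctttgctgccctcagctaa
Irf8: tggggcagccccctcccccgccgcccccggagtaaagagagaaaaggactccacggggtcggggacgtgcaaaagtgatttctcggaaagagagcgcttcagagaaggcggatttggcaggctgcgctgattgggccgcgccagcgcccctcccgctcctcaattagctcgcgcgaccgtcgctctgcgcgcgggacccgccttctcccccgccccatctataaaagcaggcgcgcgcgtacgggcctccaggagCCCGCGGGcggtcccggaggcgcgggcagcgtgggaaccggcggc
CCCNNGGG, the palindromic core read by EBF1, was found in 3 of the 7 promoters, those printed for Spib, Erg and Irf8, with 2 overlapping matches in Spib. It occurred in 13.7% of all 32851 promoters of this length. The E box CAGGTG, read by E2A, was found in 2 of the 7, an inner Erg promoter and a second Irf8 promoter, against 20.2% of all. CAGCTG was in none of the 7, against 16.3% of all. The general E box CANNTG, which takes in both forms above and is not in capitals, was in 4 of the 7, against 72.3% of all. None of the 7 held the FOXO motif GTAAACA (3.65% of all), the PU.1 motif GAGGAAGT (3.20%), a joint Ets and Irf element written as GGAA then GAAA with 2 bases between (2.72%), or a repeat of GAAA with 2 bases between (Irf, 3.44%), each searched on both strands. A match is a description of these letters only.

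RNA values are log2 normalized intensities, and a probe is called well above background or dim by the scanner software. The share of 43379 spots well above background ran from 40.9% (E2A-/- replicate 2) to 61.8% (E2A-/- replicate 1). Replicates correlated across probes, which are not independent of one another, with r of 0.975 (E2A-/-), 0.987 (EBF-/-) and 0.980 (RAG1-/-). The number of arrays limits the precision. The probe for Tcf3, the gene of E2A, measured 10.80 and 9.44 in E2A-/- cells, 13.41 and 13.39 in EBF-/- cells and 14.99 and 14.70 in RAG1-/- cells. The Ebf1 probe measured 6.94 and 5.39 in the first group, 10.86 and 10.90 in the second and 12.56 and 12.39 in the last, and the Rag1 probe 5.58 and 4.41, 9.79 and 9.58, and 10.54 and 11.12. The labels do not place these probes inside or outside the deletions, so they check no label.

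The summed level of 7 B lineage markers (log2 of the sum of normalized intensities) was 14.01 and 11.66 in E2A-/- cells, 11.49 and 11.49 in EBF-/- cells and 19.79 and 19.58 in RAG1-/- cells. All 7 rose in RAG1-/- against EBF-/- cells and 6 of 7 against E2A-/- cells. The 6 dendritic cell markers summed to between 15.33 and 16.15 in the pre-pro-B samples and to 11.97 and 12.01 in RAG1-/- samples, with 4 of 6 lower in both comparisons. The T lineage sum was 10.78 and 11.49 in E2A-/- cells, 15.10 and 15.02 in EBF-/- cells and 13.45 and 13.51 in RAG1-/- cells, with Cd3g and Bcl11b not kept by the filter. Lck and Gata3 were lower in RAG1-/- than in EBF-/- cells. Against E2A-/- cells Lck and Thy1 were higher and Gata3 was lower. The myeloid sum of 6 kept markers of 8 ran from 15.08 to 16.44 in the pre-pro-B samples and was 11.94 and 15.74 in the RAG1-/- samples, Elane and Csf3r not being kept. The NK sum of 4 kept markers of 5, without Ncr1, was 12.87 to 13.42 in pre-pro-B samples and 8.97 and 8.34 in RAG1-/- samples. Klrd1 alone measured 12.83 to 13.28 in the pre-pro-B samples. All 4 were lower in RAG1-/- than in EBF-/- cells, while against E2A-/- cells Klrd1 and Klrb1c were lower, Prf1 was higher and Gzma was not called. The part that these marker levels have in the members' RNA levels was not tested. In these bulk samples fewer cells of a type and less RNA per cell cannot be told apart.

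In RAG1-/- pro-B cells, Spib, Ets1, Erg, Irf4 and Irf8 rose against both pre-pro-B groups, and Ets1 alone of the 7 genes was called higher in EBF-/- than in E2A-/- cells. Of 13 member probes, 10 were called higher and 1 lower in RAG1-/- against EBF-/- cells (limma, adjusted p threshold 0.05), where 20% of all tested probes were called higher and 18.7% lower. RAG1-/- against E2A-/- cells also gave 10 higher and 1 lower, beside 20.7% and 19.7% of all. EBF-/- against E2A-/- cells gave 4 higher, all of Ets1, and 0 lower, beside 10.3% and 10.5% of all. The median change of the 13 probes was 2.67, 4.65 and 0.14 on the log2 scale in those 3 comparisons, in that order, and that of all tested probes was 0.08, 0.05 and -0.03. These comparisons share samples, and probes of 1 gene measure the same RNA. Erg probe A_51_P418519, among the 10 called higher, passed the filter only through the RAG1-/- samples, where it is high.

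**Figure D1:**
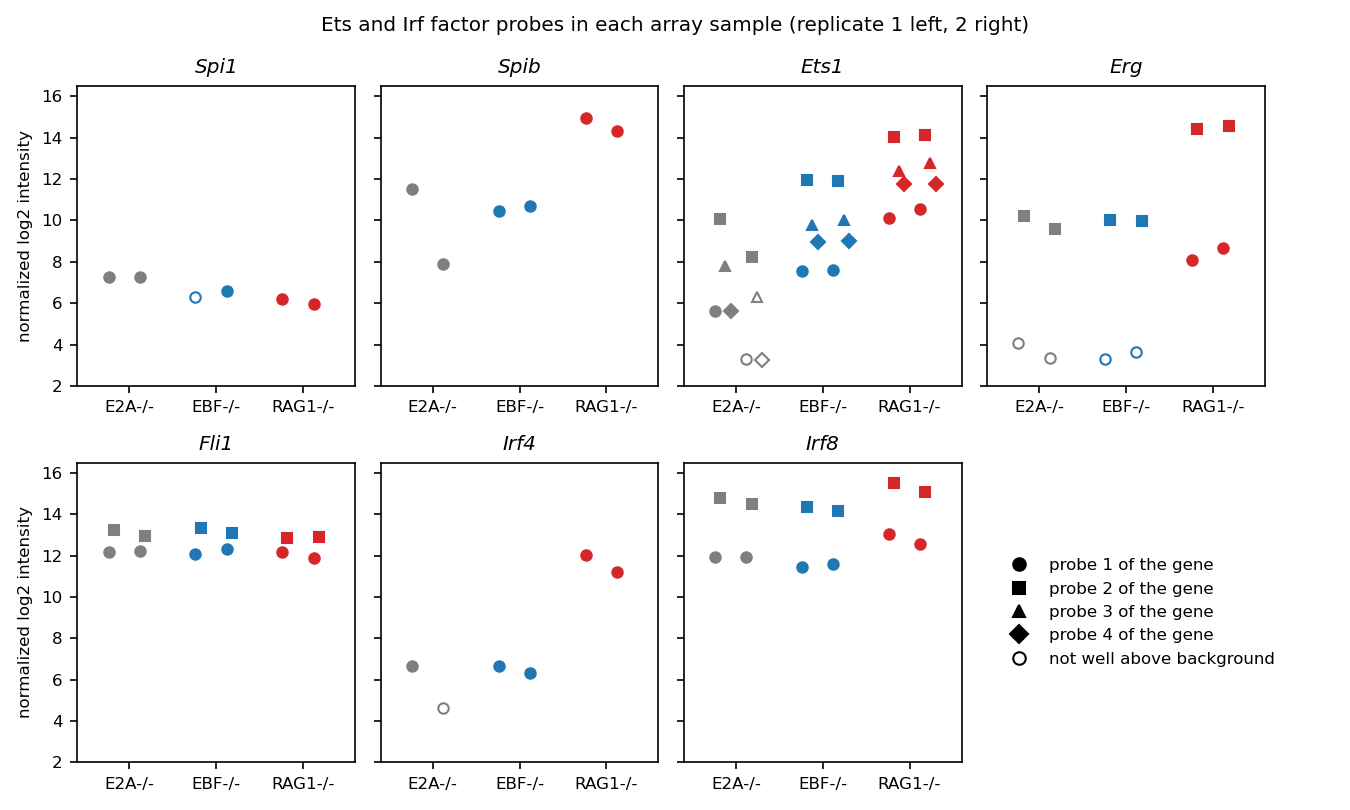
Log2 normalized intensity of each member probe (1 panel per gene, probes numbered within a gene) in the 2 samples of E2A-/-, EBF-/- and RAG1-/- cells. The RAG1-/- samples of Spib, Ets1, Erg, Irf4 and Irf8 lie above all others, Fli1 varies little, and E2A-/- replicate 1 lies above replicate 2 for Spib, Ets1 and Irf4.

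Spi1 encodes PU.1, and its probe A_52_P498086, named Sfpi1 in the files, lies across chr2:90900347-90914134 (mm8, plus strand). It measured 7.25 and 7.25 in E2A-/- cells, 6.30 and 6.57 in EBF-/- cells, where replicate 1 was dim, and 6.19 and 5.96 in RAG1-/- cells. The E2A-/- samples were highest and the RAG1-/- samples lowest, though the nearest EBF-/- and RAG1-/- samples lay close, at 6.30 and 6.19. The change of -1.18 ± 0.24 (SE, n = 2 per group) in RAG1-/- against E2A-/- cells, 2.26-fold lower, was called (limma adjusted p = 0.0204). The changes of -0.81 ± 0.24 in EBF-/- against E2A-/- and of -0.37 ± 0.25 in RAG1-/- against EBF-/- cells were not (adjusted p = 0.0846 and 0.306). The call was lost when any 1 of the 6 samples was left out (adjusted p from 0.0595 to 0.118) and with no filter on dim probes (0.143).

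Spib, the Ets factor closest to PU.1, has 1 probe at chr7:44394318-44394377 (minus strand). It measured 11.50 and 7.90 in E2A-/- cells, 10.46 and 10.68 in EBF-/- cells and 14.93 and 14.34 in RAG1-/- cells. Both RAG1-/- samples lay above all others, and the E2A-/- samples, with an SD of 2.55, fell on both sides of the EBF-/- samples. RAG1-/- cells were higher by 3.96 ± 1.06 (15.6-fold) than EBF-/- cells (adjusted p = 0.0438) and by 4.89 ± 1.04 (29.7-fold) than E2A-/- cells (adjusted p = 0.0223). The change in EBF-/- against E2A-/- cells was 0.93 ± 1.04 (adjusted p = 0.592).

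The Spib calls changed when single samples were left out. Without EBF-/- replicate 1 the change against EBF-/- cells was 3.16 (limma adjusted p = 0.195), without EBF-/- replicate 2 it was 4.81 (0.0905), without RAG1-/- replicate 1 it was 2.89 (0.161), and without RAG1-/- replicate 2 it was 5.09 (0.0493). Against E2A-/- cells the call was lost without RAG1-/- replicate 1 (3.76, adjusted p = 0.0998), and with no filter on dim probes (4.89, 0.0617), as it was against EBF-/- cells (3.96, 0.109), and the change was 6.95 without E2A-/- replicate 1, 2.94 without E2A-/- replicate 2 and 5.96 without RAG1-/- replicate 2. EBF-/- cells were higher than E2A-/- cells by 2.88 (adjusted p = 0.00482) without E2A-/- replicate 1 and lower, at -1.13 (0.0357), without E2A-/- replicate 2. E2A-/- replicate 1 shared an array with RAG1-/- replicate 1 and also had the higher B lineage sum, and its part in these values was not tested. Within single arrays, Spib was 3.43 higher in RAG1-/- replicate 1 than in E2A-/- replicate 1 and 2.56 higher in EBF-/- replicate 1 than in E2A-/- replicate 2.

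Ets1, a lymphoid Ets factor needed for normal T, NK and B cells, has 4 probes in chr9:32503796-32506899 (plus strand). Probe A_52_P194250 measured 10.09 and 8.22 in E2A-/- cells, 11.95 and 11.88 in EBF-/- cells and 14.05 and 14.15 in RAG1-/- cells. The levels rose in steps from E2A-/- through EBF-/- to RAG1-/- cells. EBF-/- cells exceeded E2A-/- cells by 2.79 ± 0.47 (6.90-fold, adjusted p = 0.0216), and RAG1-/- cells exceeded EBF-/- cells by 2.13 ± 0.48 (4.39-fold, adjusted p = 0.0266).

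RAG1-/- cells exceeded E2A-/- cells at this Ets1 probe by 4.92 ± 0.47 (30.3-fold, adjusted p = 0.00246), a call that held in all 14 alternatives. The other Ets1 probes rose by 2.83 to 4.58 in EBF-/- against E2A-/- cells (limma adjusted p from 0.0135 to 0.0279), by 2.67 to 2.73 in RAG1-/- against EBF-/- cells (0.00925 to 0.0304) and by 5.50 to 7.31 in RAG1-/- against E2A-/- cells (0.00132 to 0.00283). These 3 probes were dim in E2A-/- replicate 2, so the size of their change against E2A-/- cells rests partly on a dim sample. Without EBF-/- replicate 2 none of the 4 probes was called in EBF-/- against E2A-/- cells, and without EBF-/- replicate 1 only A_52_P232830 was. For A_52_P194250 those changes were 2.36 (adjusted p = 0.125) and 3.24 (0.0797). Its call in RAG1-/- against EBF-/- cells was lost without EBF-/- replicate 1 (1.70, adjusted p = 0.133), EBF-/- replicate 2 (2.59, 0.0597) or RAG1-/- replicate 1 (1.73, 0.100). In the same comparison A_51_P329043 and A_52_P258291 each lost it without 3 of the 6 samples (adjusted p from 0.0627 to 0.132 and from 0.0659 to 0.151), and A_52_P232830 kept it in every alternative that kept the probe. With no filter on dim probes A_52_P194250 was not called in either comparison (0.0614 and 0.0705). The change against E2A-/- cells was 5.83 without E2A-/- replicate 1 and 4.05 without E2A-/- replicate 2, both called.

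Erg, an Ets factor of blood stem cells and megakaryocytes, has 2 probes in chr16:95468434-95469206 (minus strand). Probe A_52_P499821 measured 10.21 and 9.56 in E2A-/- cells, 10.04 and 9.99 in EBF-/- cells and 14.43 and 14.57 in RAG1-/- cells. The pre-pro-B groups overlapped and both RAG1-/- samples stood apart above them. RAG1-/- cells were higher by 4.47 ± 0.17 (22.2-fold, adjusted p = 0.000546) than EBF-/- cells and by 4.61 ± 0.16 (24.4-fold, adjusted p = 0.000411) than E2A-/- cells. The pre-pro-B groups differed by 0.14 ± 0.16 (adjusted p = 0.616). The other probe, A_51_P418519, was dim in all 4 pre-pro-B samples and measured 8.10 and 8.66 in RAG1-/- cells. It was at least 6.27-fold higher than in EBF-/- cells (limma adjusted p = 0.00309) and at least 7.51-fold higher than in E2A-/- cells (0.00288). The bound sets the RAG1-/- mean against a floor per dim sample, either its lowest signal well above background or its own signal where that is higher. This probe passed the filter only through the RAG1-/- samples, where it is high, so its calls are no separate support. Both Erg probes were called higher in RAG1-/- cells in every alternative that kept them. Of 4 kept megakaryocyte markers, 0 were higher in RAG1-/- than in EBF-/- cells, and Gp9 and Gp1bb were lower. Their part in the Erg levels was not tested.

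Fli1, the Ets factor most like Erg, has 2 probes in chr9:32171837-32173322 (minus strand) and is the neighbour of Ets1. Probe A_51_P370600 measured 12.16 and 12.22 in E2A-/- cells, 12.09 and 12.31 in EBF-/- cells and 12.15 and 11.87 in RAG1-/- cells. Probe A_52_P821 measured 13.22 and 12.92, 13.34 and 13.07, and 12.84 and 12.89 in the same order. All samples of a probe lay within a narrow range. The single call was -0.34 ± 0.10 (1.27-fold lower, adjusted p = 0.0494) in RAG1-/- against EBF-/- cells for A_52_P821, while the other probe gave -0.20 ± 0.09 (adjusted p = 0.165). The call was lost in 10 of 14 alternatives, among them leaving out any sample other than RAG1-/- replicate 1.

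**Figure D2:**
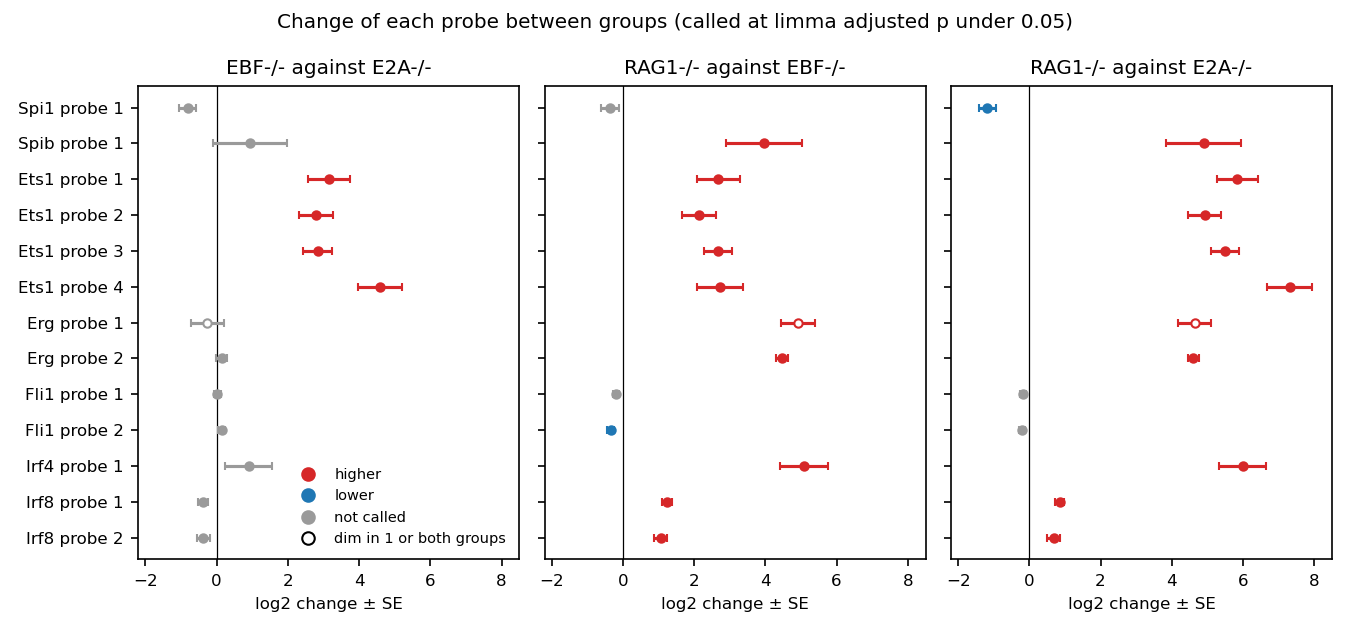
Log2 change of each member probe in 3 comparisons (x axis, ± SE of the fit, n = 2 per group), red for higher, blue for lower and grey for not called at a limma adjusted p of 0.05, open where the probe was dim in both samples of 1 or both groups. Irf4 and Erg rise against both pre-pro-B groups, and the Ets1 probes are the only ones called in EBF-/- against E2A-/- cells.

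Irf4, which with Irf8 acts on light chain genes and pre-B cell maturation, has 1 probe at chr13:30774055-30774114 (plus strand). It measured 6.64 and 4.61 in E2A-/- cells, where replicate 2 was dim, 6.65 and 6.30 in EBF-/- cells and 12.03 and 11.23 in RAG1-/- cells. Both RAG1-/- samples were far above the others, and the pre-pro-B groups overlapped. RAG1-/- cells were higher by 5.09 ± 0.67 (34.1-fold, adjusted p = 0.00648) than EBF-/- cells and by 6.00 ± 0.66 (63.8-fold, adjusted p = 0.00354) than E2A-/- cells. Both calls held in all 13 alternatives that kept the probe, with changes of 4.14 (without RAG1-/- replicate 1) to 6.09 (without RAG1-/- replicate 2) against EBF-/- cells. Against E2A-/- cells the change was 7.15 without E2A-/- replicate 1 and 4.89 without E2A-/- replicate 2. Between the pre-pro-B groups the change was 0.90 ± 0.66 (adjusted p = 0.402).

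Irf8, a factor of dendritic, myeloid and B cells, has 2 probes in chr8:123641966-123642460 (plus strand). Probe A_51_P187253 measured 11.95 and 11.93 in E2A-/- cells, 11.47 and 11.61 in EBF-/- cells and 13.02 and 12.54 in RAG1-/- cells. Probe A_52_P354823 measured 14.77 and 14.49, 14.33 and 14.15, and 15.52 and 15.10 in that order. For both probes the EBF-/- samples were lowest and the RAG1-/- samples highest. RAG1-/- cells were higher than EBF-/- cells by 1.23 ± 0.14 (2.35-fold, adjusted p = 0.00450) and 1.06 ± 0.19 (2.08-fold, adjusted p = 0.0146). They were higher than E2A-/- cells by 0.85 ± 0.14 (1.80-fold, adjusted p = 0.0105) and 0.68 ± 0.19 (1.60-fold, adjusted p = 0.0438). Without E2A-/- replicate 2 the calls against E2A-/- cells were lost (limma adjusted p = 0.0628 and 0.201), and A_52_P354823 lost its call against EBF-/- cells without EBF-/- replicate 1 (0.0550) or replicate 2 (0.0932). Its call against E2A-/- cells was also lost without EBF-/- replicate 1 (0.0672) or replicate 2 (0.0657), with no filter on dim probes (0.112) and with no array block (0.0505). The changes in EBF-/- against E2A-/- cells were -0.38 ± 0.14 and -0.37 ± 0.19 (adjusted p = 0.125 and 0.231), and without either RAG1-/- sample both were called lower (adjusted p from 0.0161 to 0.0202). In the RAG1-/- samples, where Irf8 rose, the dendritic cell marker sum was lower and the B lineage sum higher. The part of either in the Irf8 levels was not tested.

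Other genes of both families were called in both directions, as were probes at large. Of all tested probes, 20% were called higher and 18.7% lower in RAG1-/- against EBF-/- cells. These shares were 20.7% and 19.7% in RAG1-/- against E2A-/- cells, and 10.3% and 10.5% in EBF-/- against E2A-/- cells. The gene lists here and below are short, and whether their counts differ from these shares was not tested. Of 21 other Ets genes 11 were tested, 1 of them higher and 4 lower in RAG1-/- against EBF-/- cells, with a median of -0.19 beside 0.04 over all genes. Elk4, a partner of serum response factor, rose by 1.15 ± 0.13 (limma adjusted p = 0.00402), while the repressors Elk3 (4.01-fold lower, adjusted p = 0.00176) and Erf (-1.91 ± 0.23, adjusted p = 0.00531) fell. Against E2A-/- cells 3 rose and 4 fell, with a median of 0.15. EBF-/- against E2A-/- cells gave 1 higher and 3 lower, with a median of -0.11. All 7 other Irf genes were tested, and 0 rose and 4 fell in RAG1-/- against EBF-/- cells, with a median of -0.41. Irf7, the factor that amplifies type I interferon, fell by 2.79 ± 0.32 against EBF-/- cells (adjusted p = 0.00455) and by 5.63 ± 0.31 against E2A-/- cells (adjusted p = 0.000813). It is abundant in plasmacytoid dendritic cells. Of the 6 dendritic cell markers, 4 were lower and 2 not called in both comparisons, and 1 rose and 2 fell in EBF-/- against E2A-/- cells. Their part in the Irf7 changes was not tested. In RAG1-/- against E2A-/- cells 2 other Irf genes rose, Irf1 and Irf2, and 3 fell, with a median of -0.19. In EBF-/- against E2A-/- cells 3 rose and 1 fell, the latter being Irf7 (-2.84 ± 0.31, limma adjusted p = 0.00822), with a median of -0.34.

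Among 11 partners of hematopoietic Ets factors 10 were tested, and 0 rose and 5 fell in RAG1-/- against EBF-/- cells, with a median of -1.08 beside 0.04 over all genes. Tal1, a bHLH factor of stem cells, fell by 3.86 ± 0.45 (limma adjusted p = 0.00463), and Cebpa, a myeloid factor, fell by 3.03 ± 0.39 (adjusted p = 0.00627). Tal1 was well above background in 1 of the 2 RAG1-/- samples. Against E2A-/- cells 4 rose and 5 fell, with a median of -0.24. EBF-/- against E2A-/- cells gave 4 higher and 2 lower, with a median of 0.07. Gfi1b, a repressor of the erythroid and megakaryocyte lines, was higher there by 3.96 ± 0.16 (limma adjusted p = 0.00215).

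Of 15 genes known as targets of PU.1 and Spi-B 14 were tested, and 6 rose and 3 fell in RAG1-/- against EBF-/- cells, with a median of 0.44. The genes that rose included Igll1, a surrogate light chain gene (10.35 ± 1.84, limma adjusted p = 0.0143), and Cd79a, a B cell receptor subunit (at least 24.6-fold higher, adjusted p = 0.00356). Flt3, a cytokine receptor of progenitors, fell by 5.58 ± 0.10 (adjusted p = 0.000495), and FLT3 ligand was in the pre-pro-B cultures only. The comparison with E2A-/- cells gave 6 higher and 5 lower, with a median of -0.22. In EBF-/- against E2A-/- cells 2 rose and 5 fell, with a median of -0.90. Csf1r, the macrophage growth factor receptor and a myeloid marker, was lower there by 50.4-fold (-5.66 ± 0.79, limma adjusted p = 0.0143). Only 1 of the 2 EBF-/- samples (7.90 and 4.99) was well above background for Csf1r, so the size of its change rests partly on a dim sample. Of 9 targets of Irf4 and Irf8 in B cells 7 were tested, and 4 rose and 0 fell in RAG1-/- against EBF-/- cells, with a median of 1.30. Blnk, the adaptor of the pre-B cell receptor, rose by 6.89 ± 0.35 (limma adjusted p = 0.000897) and Ikzf3 by 2.81 ± 0.22 (adjusted p = 0.00201), Blnk being also a B lineage marker and on both target lists. Ikzf3 too was well above background in only 1 of the 2 EBF-/- samples. Against E2A-/- cells 4 rose and Bcl6 fell (-1.39 ± 0.13, limma adjusted p = 0.00218), with a median of 1.745. EBF-/- against E2A-/- cells gave 0 higher and Bcl6 lower (-2.49 ± 0.13, adjusted p = 0.00256), with a median of -0.40.

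Genes with patterns most like each member were found by the distance between their 6 values, each centred on its own mean, over 12789 other genes and 6 samples. For Irf4 they were Tgfb3 (distance 0.789 on the log2 scale), Foxo1 (0.819) and Gm6212 (0.991). Foxo1, itself a factor mapped in the study, measured 8.61 and 7.02 in E2A-/- cells, 8.41 and 8.39 in EBF-/- cells and 13.95 and 13.98 in RAG1-/- cells. For Erg they were Insl6 (0.424), Lig4 (0.555) and Thrb (0.559), and for Ets1 Maged1 (0.551), Tceal9 (0.666) and Gstk1 (0.710). Among the genes closest to Spib were Nyx (0.990) and Ighg (1.32), and Spi1 lay closest to Fbxw9 (0.178), Cd5 (0.211) and Znrf2 (0.237). Irf8 lay closest to Tacc3 (0.180), Gabpb1 (0.205) and Atl2 (0.206), and Fli1 to Ube2e3 (0.0700), Atf2 (0.110) and Fbxo3 (0.121). A distance is small where a gene varies little, so the distances of different members are not set against each other.

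Peak lists give 1 score per peak as the authors deposited it, comparable only within a list, and there is no replicate check for any peak. E2A peaks within 50 kb were more numerous in RAG1-/- than in EBF-/- cells at every member, where the whole lists held 11846 and 4531 peaks. There were 10 in the EBF-/- list, 1 at Spi1, 4 at Spib, 1 at Ets1, 1 at Erg and 3 at Irf8, and 30.7% of all 21094 array genes had at least 1. The RAG1-/- list had 29, 3 at Spi1, 6 at Spib, 3 at Ets1, 3 at Erg, 2 at Fli1, 3 at Irf4 and 9 at Irf8, where 48.0% of genes had at least 1. Fli1 and Irf4 had E2A peaks in RAG1-/- and none in EBF-/- cells, as did 23.7% of all genes. No member had an E2A peak in EBF-/- cells alone (6.46% of genes), or E2A, EBF1 and FOXO1 peaks all in RAG1-/- cells (3.00%). Irf8 was dense in E2A peaks, and 0.204% of array genes had 9 or more in RAG1-/- cells. For the 4 and 6 at Spib these shares were 1.13% and 1.79%. No score limit was set on these counts. The RAG1-/- list had a lowest score of 9 and a median of 13, and its Irf8 peaks scored from 9 to 57. At Spi1 its peaks 29.1 kb before and 23.6 kb after the probe both scored 9.

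**Figure D3:**
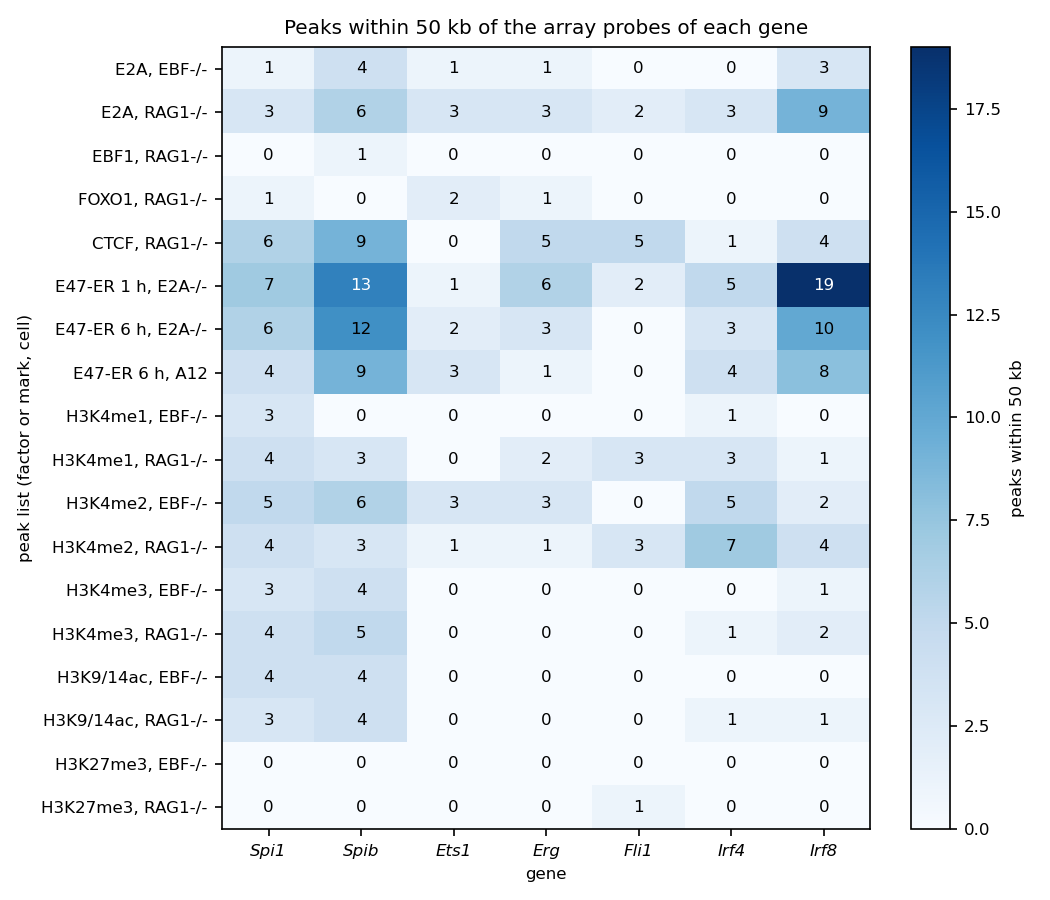
Number of peaks within 50 kb of the array probes of each gene (columns) in 18 peak lists (rows), darker for more peaks. Irf8 with 19 and Spib with 13 peaks at 1 h of E47-ER stand out, and no E2A peak of EBF-/- cells lies near Fli1 or Irf4.

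Of the E2A peaks near members, 5 overlapped between the 2 cells, which is 50.0% of the EBF-/- and 17.2% of the RAG1-/- ones, beside 44.7% and 17.1% of the whole lists. A site is given here as the merged span of overlapping factor peaks. There was 1 such site at each of Spi1, Spib, Ets1, Erg and Irf8. The Ets1 site at chr9:32455503-32455946, 48.1 kb before the probes, was held by 6 of the 7 factor lists, with E2A scores of 37 (EBF-/-) and 60 (RAG1-/-) and both FOXO1 peaks near Ets1. The FOXO1 peak with a score of 9 overlapped the RAG1-/- E2A peak, and the one with a score of 16 did not. The Erg site at chr16:95514337-95514585, 45.3 kb before the probes, scored 25 and 52, and the Irf8 site at chr8:123611150-123611446, 30.7 kb before the probes, scored 11 and 57. The Spi1 site at chr2:90883820-90884059, 16.4 kb before the probe, also held a FOXO1 peak, and the Spib site was at chr7:44396137-44396389. All 5 also held E47-ER peaks at 1 h and 6 h, and those of Ets1, Erg and Irf8 an E47-ER peak in A12 cells.

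EBF1 had 1 peak near the members, at Spib, where 11.0% of array genes had at least 1. It lay 21.7 kb before the probe at chr7:44415934-44416133, with a score of 15 and overlapped an E2A peak of RAG1-/- cells with a score of 71. No E2A peak of EBF-/- cells lay there, an H3K4me3 peak of both cells overlapped it, and E47-ER in A12 cells scored 11. FOXO1 had 4 peaks, 1 at Spi1, 2 at Ets1 and 1 at Erg, where 12.6% of genes had at least 1 and 1.75% had 2 or more. At Irf4 the 3 E2A peaks of RAG1-/- cells lay 45.3 kb before (score 28), 5.0 kb before (21) and 44.0 kb after the probe (9), and the one at 5.0 kb overlapped an E47-ER peak at 1 h. CTCF, which organises chromatin loops, had 30 peaks, from 0 at Ets1 to 9 at Spib, where 85.0% of genes had at least 1. The mock immunoprecipitation had 0 peaks near the members, and 1.30% of genes had at least 1.

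**Figure D4:**
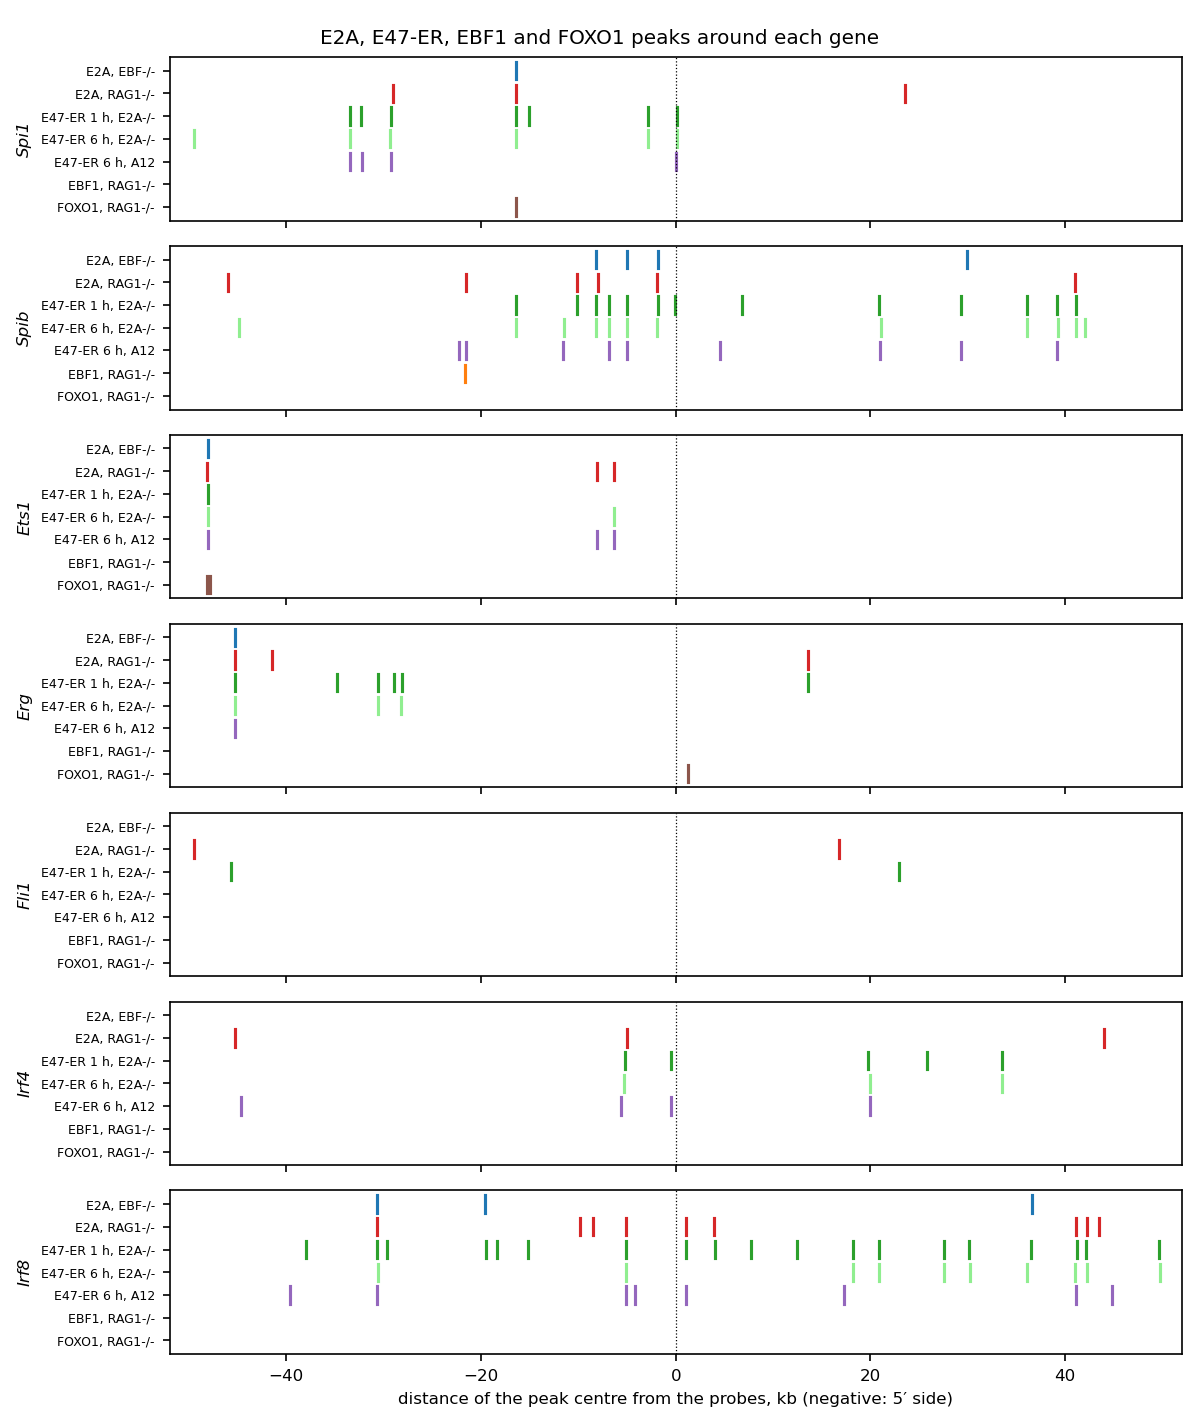
Peaks of the factor lists around each gene, plotted by distance from the gene's array probes in kb, 1 row per list. Irf8 and Spib carry peaks throughout the window, while Fli1 holds few.

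E47-ER, returned to E2A-/- cells, gave 53 peaks near members at 1 h and 36 at 6 h, and 29 in A12 cells, of 26792, 15386 and 17030 in the lists, where 64.5%, 51.7% and 54.6% of array genes had at least 1. Irf8 had 19, 10 and 8 of them, and 0.299%, 2.02% and 3.34% of array genes had as many. Spib had 13, 12 and 9, with shares of 2.65%, 0.853% and 2.11%. Spi1 had 7, 6 and 4, Irf4 5, 3 and 4, Erg 6, 3 and 1, Ets1 1, 2 and 3, and Fli1 2, 0 and 0. All members but Fli1 had a peak in the 3 lists, as did 42.9% of genes. Between 1 h and 6 h 30 peaks overlapped, 56.6% of the earlier and 83.3% of the later ones, beside 46.3% and 80.7% of the whole lists. Between the 6 h and A12 lists 14 overlapped, 38.9% and 48.3%, beside 46.1% and 41.7%.

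H3K4me1, a mark of enhancers, was compared between E47-ER and bHLH-ER at 6 h, where 54.9% and 65.4% of array genes had a peak in E2A-/- cells and 44.2% and 48.0% in A12 cells. E47-ER at 1 h gave 12 peaks near members (66.6% of genes). Of 7 peaks near members in E2A-/- cells with E47-ER, 6 overlapped peaks among the 13 with bHLH-ER, which is 85.7% and 46.2%, beside 51.4% and 33.5% of the whole lists. Irf4 had 4 peaks with either protein, Spib had 1 with E47-ER and 4 with bHLH-ER, and Irf8, Ets1 and Fli1 had none with either. In A12 cells both proteins gave 6 peaks, of which 2 overlapped, 33.3% of either, beside 52.2% and 45.7% of the whole lists. The Irf8 peak with E47-ER in A12 cells, at chr8:123650960-123651959 and 9.0 kb after the probes, had a score of 91, above 99.8% of its list, and the bHLH-ER peak at Irf8 lay elsewhere, 40.0 kb before the probes.

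Among marks of EBF-/- and RAG1-/- cells, H3K4me1 peaks near members numbered 4 and 16 of 7544 and 23054 in the lists, where 44.5% and 73.8% of array genes had at least 1. Spib, Erg, Fli1 and Irf8 had H3K4me1 in RAG1-/- and none in EBF-/- cells, as did 32.4% of genes. H3K4me2 peaks numbered 24 and 23 (78.9% and 80.1% of genes), and Irf4 had 5 and 7 of them. H3K4me3, a mark of active promoters, had 8 and 12 peaks (61.2% and 69.7% of genes), of which 7 overlapped, 87.5% and 58.3%, beside 96.2% and 66.0% of the whole lists of 9064 and 13205 peaks. Ets1, Erg and Fli1 had no H3K4me3 peak within 50 kb in either cell, a window that need not hold their promoters. H3K9/14ac peaks numbered 8 and 9 (69.1% and 68.9% of genes). In RAG1-/- cells alone, Fli1 had H3K4me2 (3.91% of genes) and H3K27me3 (12.3%), and Irf4 and Irf8 had H3K9/14ac (3.11%). No member had a mark in EBF-/- cells alone, which was so for 3.02% (H3K4me1), 2.71% (H3K4me2), 0.322% (H3K4me3), 6.02% (H3K27me3) and 3.30% (H3K9/14ac) of genes.

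Irf4 was the member with H3K4me3 in RAG1-/- and none in EBF-/- cells, as were 8.85% of array genes. Its peak, at chr13:30756785-30757784 and 16.8 kb before the probe, scored 380, above 99.7% of the list, and overlapped an H3K9/14ac peak of RAG1-/- cells. Spib had an H3K4me3 peak 4.0 kb before the probe, at chr7:44397925-44398924, in RAG1-/- cells (score 291, above 93.9% of the list) with none at that place in EBF-/- cells. The Irf8 peak 19.1 kb before the probes, at chr8:123622402-123623401, was in both cells, with a score above 95.9% of the RAG1-/- list and 35.5% of the EBF-/- list. The Spi1 peak 2.2 kb before the probe was in both, above 58.9% and 38.0%. H3K27me3, a repressive mark, had 0 peaks near members in EBF-/- cells (9.69% of genes) and 1 in RAG1-/- cells, 13.2 kb after the Fli1 probes with a score of 60 (16.0% of genes).

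A window of 250 kb, chosen after seeing the data, reached H3K4me3 peaks of the members that lacked one. Erg had a peak 98.0 kb before the probes in RAG1-/- cells, at chr16:95566748-95567747 (score 306, above 96.2% of the list), and no H3K4me3 in EBF-/- cells. An H3K27me3 peak of EBF-/- cells (score 23, above 78.9% of its list) overlapped that place by 955 bases. Ets1 had a peak in both cells, 57.0 kb before the probes in RAG1-/- cells (above 86.7%) and 57.8 kb before them in EBF-/- cells (above 43.1%). Fli1 also had 1 in both, 117.1 kb before the probes (above 98.5% and 90.6%). At the edge of the 50 kb window, the RAG1-/- E2A peak of Ets1 at 48.2 kb and that of Fli1 at 49.5 kb lay inside, and the Ets1 H3K4me3 peak at 57.0 kb lay outside.

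**Figure D5:**
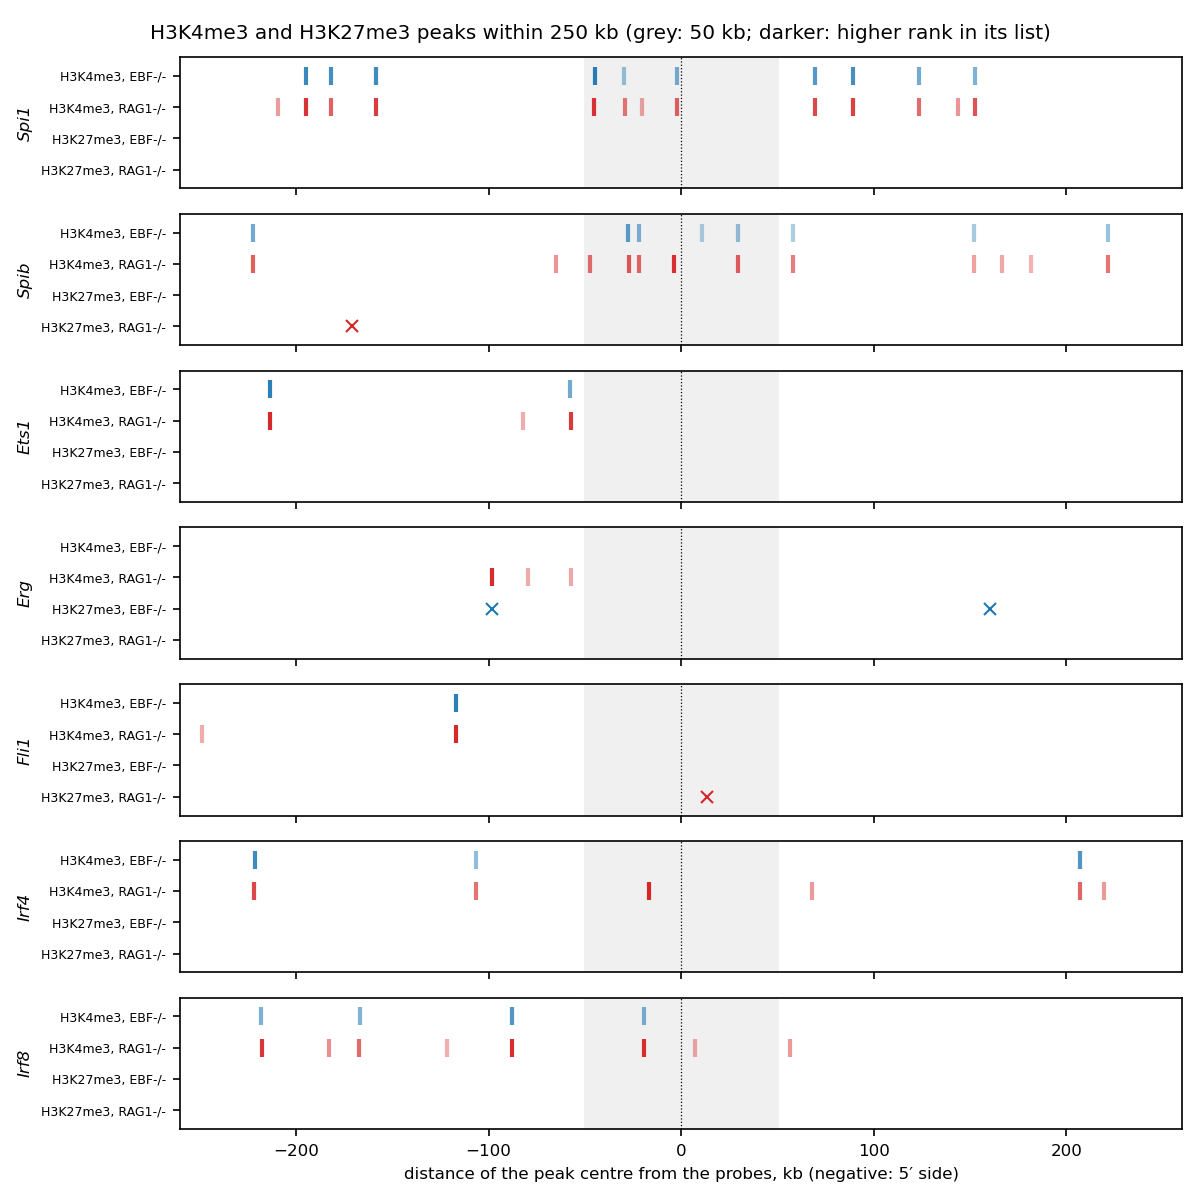
H3K4me3 peaks within 250 kb of each gene in EBF-/- and RAG1-/- cells, plotted by distance from the array probes in kb, darker for a higher rank by score in its list, with H3K27me3 peaks as crosses and the 50 kb window as a grey band. The Irf4 peak at 16.8 kb and the Erg peak at 98.0 kb before the probes appear in RAG1-/- cells only.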

How the data were processed

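The deposited intensity values come from Agilent Feature Extraction 9.5.3.1, which subtracted background and normalized the dyes within each array, per the file headers. Their log2 values were quantile normalized here over 6 channels of 4 arrays with 2 colours each and averaged per probe, without control and outlier spots. Another 2 channels have no group in the labels and were not used. Of 41099 probes, 22132 passed the filter, which asks that some group has both its samples well above background. They were tested in 1 limma fit (3.58.1, R 4.3.3) on group and dye, with a random block for the array (correlation 0.0822), a trended prior and Benjamini-Hochberg adjustment at 0.05. The fit was tested on simulated data. The brightest kept probe stood for a gene in lists, and RefSeq names updated the symbols.

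Peaks were found with HOMER on mm8, per the submitters' processing notes, and each deposited score is a whole number per peak of unstated meaning. Sources used here give no aligner or threshold. Peaks overlap when they share 1 base or more, counted in Python 3.11.15. Named genes are every member, the 3 genes most like each (1 of those for Spib is not reported here), and up to 4 called genes per list with the largest changes, 2 in each direction. Members and lists were chosen with earlier results of these data known. Alternatives were median-centred channels, normexp with loess (offset 50), other filters on dim probes, no dye term, no array block, a replicate block, each sample left out, and other peak windows and score limits.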

Additional observations from a re-analysis of the deposited data

How the results depend on the processing

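In 170 comparisons per contrast of a member probe with an alternative, 153 kept direction and call in EBF-/- against E2A-/- cells, 142 in RAG1-/- against EBF-/- and 153 in RAG1-/- against E2A-/-. Calls were lost in 9, 28 and 15 and gained in 7, 0 and 2, and 1 reversed, Spib in EBF-/- against E2A-/- cells (-1.13 without E2A-/- replicate 2, and 2.88 without replicate 1). The cause of these shifts was not tested, beyond fewer probes or samples entering a fit.

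EBF-/- against E2A-/- cells gave 2279 probes higher and 2316 lower. Median-centred channels, which moved the median of all probes to -0.22 there and to 0.20 in RAG1-/- against EBF-/- cells, gave 1449 higher and 2918 lower. With no filter on dim probes 1338 were higher and 1268 lower, of 41099 probes tested. The brightest probe per gene gave 2765 of 12790 higher in RAG1-/- against EBF-/- cells, beside 4418 of 22132 probes. Member probes higher in EBF-/- against E2A-/- cells fell from 4 to 2 with no filter, and to 1 with the filter in all 6 samples or the brightest probe per gene. In RAG1-/- against EBF-/- cells the 10 higher became 6 with no filter and 5 with those other settings, and the 1 lower became 0 with median-centred channels, normexp with loess, no filter, no dye term or no array block. In RAG1-/- against E2A-/- cells the 10 higher became 5 with the filter in all 6 samples or the brightest probe per gene, and the 1 lower became 0 with no filter or the filter in all 6 samples. The filter in all 6 samples and the brightest probe per gene keep fewer member probes. No member probe that they kept lost a call, and the filter in all 6 samples did not keep the Spi1 probe.

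Leaving out 1 sample at a time gave 308 to 3931 probes higher and 347 to 4038 lower in EBF-/- against E2A-/- cells, 1603 to 4384 and 1698 to 4646 in RAG1-/- against EBF-/-, and 2509 to 4806 and 2359 to 4921 in RAG1-/- against E2A-/-. Member probes higher ranged from 0 to 5, 5 to 10 and 8 to 10 in that order, and lower from 0 to 2, 0 to 1 and 0 to 1. A group left with 1 sample is assumed to vary like the others. Same-numbered samples deviated from their group means with r of -0.41 (E2A-/- and EBF-/-), 0.19 (E2A-/- and RAG1-/-) and 0.02 (EBF-/- and RAG1-/-). Shared arrays and dyes also enter these values, so they cannot show whether the numbers pair the samples. The main fit used no pairing by number. E2A-/- replicate 1 shared array 1 with RAG1-/- replicate 1, and E2A-/- replicate 2 shared array 2 with EBF-/- replicate 1, which the array block takes in. The replicate block gave 3825 probes higher and 3920 lower in EBF-/- against E2A-/- cells and 2 member probes lower there, and 2 lower in RAG1-/- against E2A-/- cells.

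The 341 peaks became 147 within 20 kb, 620 within 100 kb, 220 when peaks scoring at or above their list's median were kept and 1294 within 250 kb, the last chosen after seeing the data. Shared peaks went from 111 to 124 when peaks within 500 bases counted. Signal over background limits Erg, Irf4, Ets1 and Spi1 in the samples where their probes were dim.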

Other observations

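The 250 kb window, chosen after seeing the data, held 66 E47-ER peaks at 1 h and 43 at 6 h around Irf8, beside 32 and 18 around Spib and 8 and 4 around Erg. In RAG1-/- cells the same window held 20 E2A peaks around Irf8, 17 around Ets1 and 12 around Fli1, and the windows of the neighbours Ets1 and Fli1 overlap and so share peaks. CTCF peaks numbered 31 around Spib and 30 around Irf8.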
